A study of Mus musculus with 6 samples.

Results

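The genes examined here are the axon guidance ligands and receptors of the mouse: semaphorins, ephrins, Slits and netrins with their plexin, neuropilin, Eph, Robo, UNC5 and DCC receptors. They were chosen by symbol, as protein-coding rows of the count table with a summed count of at least 30, and 69 of the 35275 rows met the rule. The names matched 72 rows, of which 3 were antisense transcripts of Plxna4 and were left out. The rule used no measured difference between the groups. RNA of the whole spinal cord was sequenced from 3 Sox2 cKO and 3 control (Ctrl) mice on a C57BL/6 background. Sox2 cKO mice carried mGfap-Cre and Sox2fl/fl, so that Cre under the mouse Gfap promoter deletes Sox2 in astrocytes. The sample labels give the controls as mGfap-Cre:Sox2+/+, the design text gives them as carrying either mGfap-Cre or Sox2fl/fl, and the methods describe floxed littermates without Cre, so whether Cre itself was shared by both groups is not settled. Age was 90 days in the sample characteristics and 80 days in the extraction protocol. Mice of both sexes entered the study, and no library was given a sex here.

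Axon guidance proteins steer growing axons by attraction or repulsion and later act in synapse formation, glial migration and vessel growth. Secreted or membrane-bound semaphorins act through plexins, often with a neuropilin as the ligand-binding partner. Ephrins and Eph receptors signal in both directions between touching cells, Slits repel through Robo receptors, and netrins attract through DCC and repel through UNC5 receptors. In the developing spinal cord Netrin-1, Slits and ephrin-B3 mark the midline that commissural and corticospinal axons cross or avoid. In the adult cord several of these genes remain in neurons, astrocytes and the oligodendrocyte lineage.

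The libraries held between 21507911 and 28392184 counts on genes, and all pairs of libraries differed by more than sampling noise. Ctrl library 2 stood apart from its group. Its chi-square per degree of freedom over all genes, a measure of how far the counts of a pair of libraries differ, was 25 and 29.2 against the other Ctrl libraries and 28, 14.7 and 10.8 against the Sox2 cKO libraries, while Ctrl libraries 4 and 6 differed by 9.98. Sox2, the deleted gene, stood at 19.9, 14.8 and 29.5 CPM (counts scaled to library size, after TMM normalization) in Ctrl and at 3.16, 2.69 and 2.98 CPM in Sox2 cKO. Here and below, Ctrl values follow the order of libraries 2, 4 and 6, and Sox2 cKO values the order of libraries 1, 3 and 5. The column numbers name no sample, and their groups rest on the mouse numbers of the study. The groups did not overlap for Sox2, and its log2 fold change was -2.86 ± 0.24 (SE), with an adjusted p of 0.000956 from edgeR's quasi-likelihood test. An exact permutation test of 3 against 3 libraries cannot give a two-sided p below 0.1.

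In Sox2 cKO cords 24 guidance genes fell and 1 rose, of 66 that passed the filter on low counts, and 41 did not pass the test at an adjusted p of 0.05. The genes that fell included the semaphorins Sema4d and Sema3b, the plexin Plxnb1, the netrin receptors Unc5b, Unc5c and Dcc, and the most abundant member, Efnb3. Epha10 was the gene that rose. Over all 16137 genes tested, 24.6% were called, 12.4% as lower and 12.2% as higher, against 36.4% lower and 1.52% higher among the members. The median log2 fold change was -0.26 over the members and 0.02 over all genes tested. The changes were modest, with a median log2 size of 0.46 among the 25 called members, and 9 of these had a size of 0.5 or more. Gene length moved with these results. The members had a median length of 5130 bases against 3060 for all genes tested, and when the trend of each library with length was removed, 7 members fell and 3 rose. With that correction 13.1% of all genes were called, 6.99% lower and 6.08% higher, and the median of the members was -0.07 against 0.00. The calls also changed when single libraries were left out, and the cause was not tested. Without Ctrl library 4 or without Sox2 cKO library 1, edgeR called 0 members, and DESeq2 called 12 and 18. In these edgeR fits 26 and 29 members had an unadjusted p under 0.05, against 31 with all 6 libraries. The share of all genes under that unadjusted p was not computed. Without the same libraries edgeR called 26 and 8 genes of the whole table. There DESeq2 called 1094 genes lower and 887 higher without Ctrl library 4, and 1371 and 971 without Sox2 cKO library 1. Without Ctrl library 2 edgeR called 33 members, 30 lower and 3 higher, beside 3089 lower and 3030 higher of 16590 genes tested. On all 6 libraries DESeq2 called 25 of 69 members, 24 lower and 1 higher, the same genes as edgeR in the same direction. Its share of all genes was 17.7%, 2345 lower and 1991 higher of 24429, which include genes that edgeR's filter removed. On log2(FPKM + 1), limma called 13 of 63 members, 10 lower and 3 higher, where 24.3% of all genes were called, 6.2% lower and 18.1% higher.

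**Figure D1:**
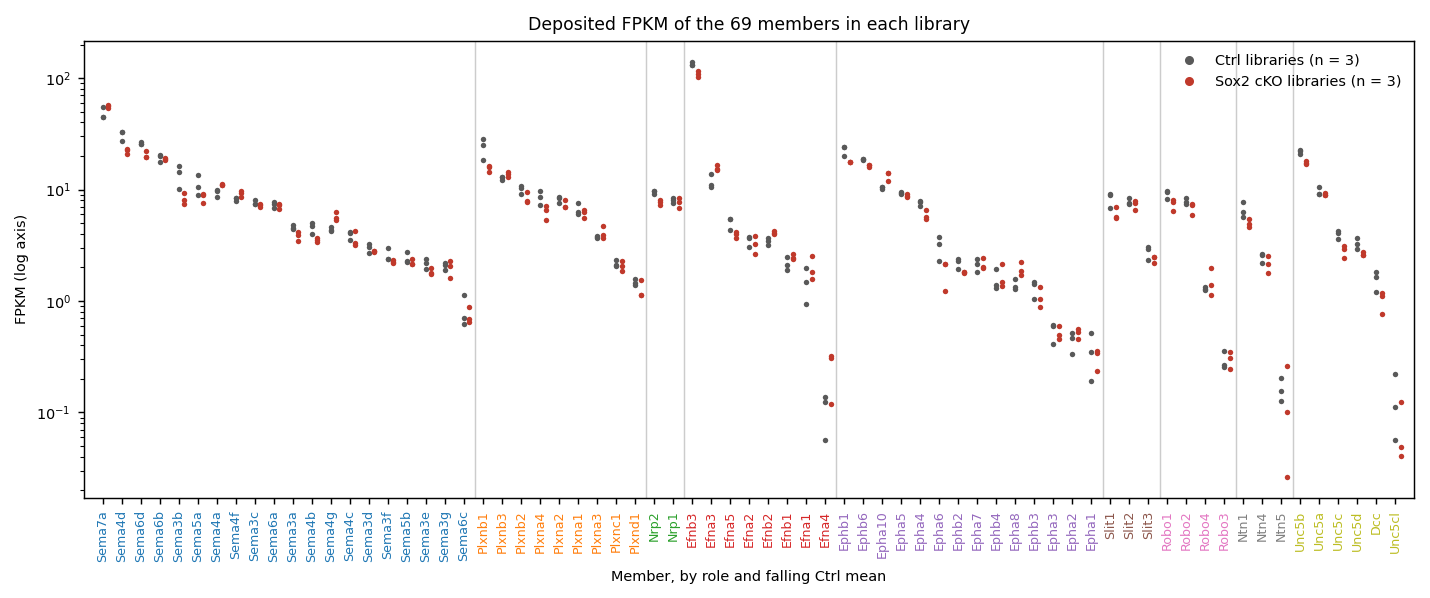
Deposited FPKM (counts scaled to gene length and library total, log axis) of the 69 members in each library, with Ctrl in grey and Sox2 cKO in red, grouped by role and ordered by the Ctrl mean. Efnb3 lay above 100 FPKM in all 6 libraries, 14 members had a mean of 10 or more, and 8 had a mean under 1.

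Levels per gene length spanned from 0.1 FPKM for Unc5cl to 122 FPKM for Efnb3, averaged over the 6 libraries. Of the 14 members at 10 FPKM or more, 8 fell and 1 rose. Of the 47 members from 1 to under 10 FPKM, 16 fell, and of the 5 tested members under 1 FPKM none was called. The other 3 members were too low to test. Of all tested genes at any level 12.4% fell and 12.2% rose, and their shares by level were not computed. Ntn5, a secreted netrin, had the lowest summed count, 38, and was the member nearest to the limit of 30, with no member under it. Its level was 0.224, 0.374 and 0.29 CPM in Ctrl and 0.0439, 0.171 and 0.453 CPM in Sox2 cKO, so that the groups overlapped. Efna4 had a summed count of 42. Unc5cl had one of 41 and matches the symbol rule, although its product is a signalling adaptor and not a netrin receptor.

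**Figure D2:**
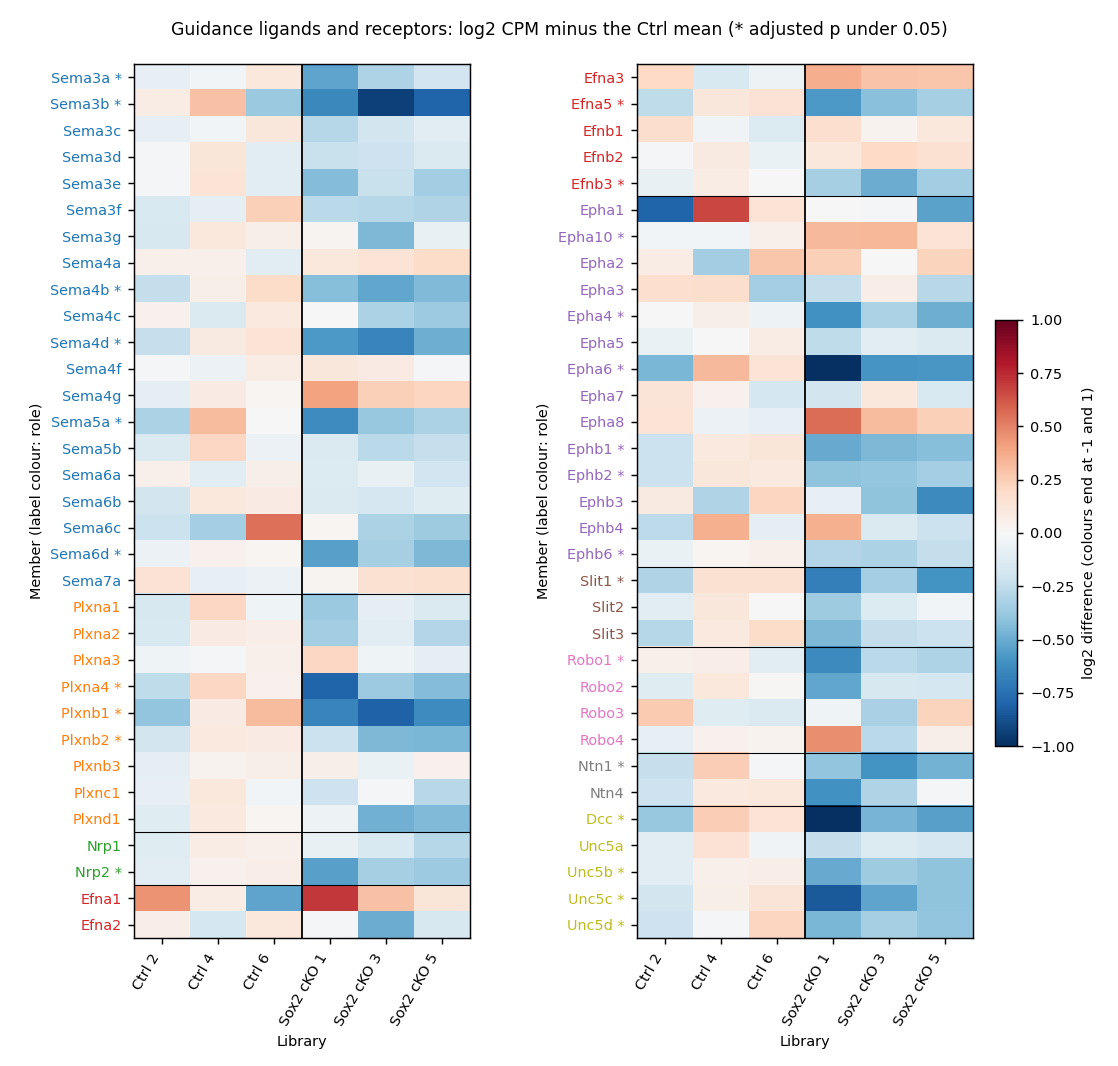
Log2 CPM of the 66 tested members in each library minus the mean of the Ctrl libraries, with colours that end at -1 and 1, label colours for roles, and an asterisk at an adjusted p under 0.05. Blue cells fill most of the Sox2 cKO columns, and Ctrl library 2 is paler blue in many rows.

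Across libraries, the median deviation of the 66 tested members from their Ctrl mean was -0.10, 0.08 and 0.05 on the log2 scale in Ctrl and -0.25, -0.27 and -0.26 in Sox2 cKO. The 3 Sox2 cKO libraries thus lay close together and below every Ctrl library, with Ctrl library 2 the nearest to them. In the Sox2 cKO libraries 49, 54 and 53 of the 66 members lay below the Ctrl mean, as did 50 in Ctrl library 2. Median deviations over all tested genes were 0.01, 0.00 and 0.00 in Ctrl and 0.03, 0.02 and 0.02 in Sox2 cKO. These library values carry no length correction. For 31 members the highest Sox2 cKO value was below the lowest Ctrl value, an order that 22.1% of all tested genes showed, and for 6 members the order was the opposite, beside 22.6% of all genes. The sign of the fold change was negative for 52 members and positive for 14, and with the length correction it was negative for 39 and positive for 27.

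Semaphorins were the largest group, with 20 members, of which 6 fell, none rose and 14 did not pass the test. Their median log2 fold change was -0.23. Of all tested genes 12.4% fell and 12.2% rose. Sema4d, a membrane semaphorin that binds Plexin-B1 and is made by oligodendrocytes among other cells, stood at 122, 152 and 157 CPM in Ctrl and at 95.7, 90.2 and 102 CPM in Sox2 cKO. All 3 Sox2 cKO libraries lay below the lowest Ctrl library. Sema4d (chr13:51685529-51793747 in mm10) changed by -0.58 ± 0.10 (log2, SE) with an adjusted p of 0.0126. Sema3b, a secreted semaphorin that acts through neuropilin-2, stood at 49.9, 58.3 and 36.8 CPM in Ctrl and at 30.3, 24.8 and 27.3 CPM in Sox2 cKO. The Ctrl libraries were spread widely and still did not overlap with the Sox2 cKO libraries. Its fold change, -0.82 ± 0.15 with an adjusted p of 0.0127, was the largest fall among the ligands.

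Sema6d, a transmembrane semaphorin and plexin-A ligand, stood at 165, 177 and 175 CPM in Ctrl and at 118, 137 and 126 CPM in Sox2 cKO, a change of -0.44 ± 0.08 with an adjusted p of 0.0128. Sema4b, a membrane semaphorin, stood at 15.2, 18.6 and 20.3 CPM against 13.3, 12.5 and 13.2 CPM, a change of -0.47 ± 0.12 with an adjusted p of 0.0232. Neither gene overlapped between the groups. Sema3a, the secreted repellent that binds neuropilin-1, stood at 26.6, 27.7 and 30.3 CPM in Ctrl and at 19.5, 22.7 and 24.6 CPM in Sox2 cKO, with an adjusted p of 0.0422. Sema5a was called at -0.46 ± 0.15, with an adjusted p of 0.0458, although its groups overlapped, since Ctrl library 2 at 97 CPM lay just under Sox2 cKO library 5 at 97.3 CPM. Sema7a, a lipid-anchored semaphorin and the most abundant of the family with 48.3 ± 5.54 FPKM in Ctrl (SD, n = 3), stood at 181, 155 and 157 CPM in Ctrl and at 167, 182 and 183 CPM in Sox2 cKO. The groups overlapped and the adjusted p was 0.398.

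Ephrins did not share a direction. Of 8 members 7 were tested, 2 fell and 5 did not pass, beside 12.4% of all tested genes that fell. The median of the ephrins was 0.09. Efnb3 is the transmembrane ephrin-B3 of the spinal midline, and at 134 ± 5.82 FPKM in Ctrl and 110 ± 7.51 FPKM in Sox2 cKO (SD, n = 3) it was the most abundant member. Its libraries stood at 421, 467 and 441 CPM in Ctrl and at 351, 314 and 347 CPM in Sox2 cKO. The groups were clearly apart, and the change was -0.39 ± 0.09 with an adjusted p of 0.0147. Efna5, a lipid-anchored ephrin, stood at 17.6, 22.7 and 23.2 CPM against 14.1, 15.7 and 16.7 CPM, a change of -0.45 ± 0.13 with an adjusted p of 0.0303. Efna3, which followed Efnb3 in level among the ephrins, was higher in all Sox2 cKO libraries, at 36.9, 35.1 and 34.8 CPM against 33, 25.9 and 27.8 CPM in Ctrl. Its change of 0.30 ± 0.10 missed the threshold with an adjusted p of 0.0555.

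Slits and netrins are secreted ligands and held few members. Slit1 stood at 38.9, 53.4 and 53.4 CPM in Ctrl and at 29.9, 38 and 31.7 CPM in Sox2 cKO, a change of -0.55 ± 0.14 with an adjusted p of 0.0211. Ctrl library 2, at 38.9 CPM, lay just above Sox2 cKO library 3. Slit2 had 51.1, 59.3 and 54.8 CPM against 42.9, 50.1 and 54 CPM, and these groups overlapped (adjusted p = 0.243). Ntn1, the attractant of commissural axons, stood at 33.7, 46.8 and 39.2 CPM in Ctrl and at 30, 26.1 and 28.5 CPM in Sox2 cKO, a change of -0.50 ± 0.12 with an adjusted p of 0.0194. Its groups did not overlap. Ntn4, a basement membrane netrin, stood at 8.03, 9.94 and 10 CPM against 6.1, 7.54 and 9.14 CPM and did not pass the test (adjusted p = 0.222).

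Among 34 tested receptors 14 fell and 1 rose, and among 32 tested ligands 10 fell. Of all tested genes 12.4% fell and 12.2% rose. The median length was 6062 bases for receptors and 4403 for ligands. Whether the shares of receptors and ligands differed was not tested. In bulk tissue fewer cells of a type and less RNA per cell cannot be told apart. Plexins, the semaphorin receptors, had 9 members, of which 3 fell, and their median of -0.25 became 0.10 when the length trend was removed. The plexins had a median length of 7045 bases, and of all genes from 4872 bases 36% fell. Plxnb1, the receptor of Sema4d, stood at 160, 223 and 262 CPM in Ctrl and at 133, 120 and 136 CPM in Sox2 cKO. The Ctrl libraries differed widely among themselves, and the lowest remained above the Sox2 cKO libraries. The change was -0.73 ± 0.15 with an adjusted p of 0.0142. Plxna4, a co-receptor of class 3 semaphorins, stood at 95.2, 131 and 117 CPM against 65, 88.3 and 84 CPM, a change of -0.53 ± 0.14 with an adjusted p of 0.0229. Antisense transcripts lie at Plxna4, and strand use in the counting is not given in the sources used here.

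Plxnb2, a receptor of class 4 semaphorins, stood at 59.1, 71.8 and 70.8 CPM in Ctrl and at 57.8, 49 and 48.8 CPM in Sox2 cKO, a change of -0.38 ± 0.10 with an adjusted p of 0.0272. Plxnb3, a Sema5A receptor, stood at 76.8, 83.9 and 85.6 CPM against 85.4, 78.4 and 84.7 CPM, and its adjusted p was 0.925. Its groups overlapped almost wholly, in contrast to those of Plxnb1 and Plxnb2. The neuropilins also differed in call. Nrp2, the co-receptor of Sema3F and Sema3B, stood at 61.7, 68.6 and 69.9 CPM in Ctrl and at 45.8, 52.9 and 51.9 CPM in Sox2 cKO, a change of -0.41 ± 0.09 with an adjusted p of 0.0145. Nrp1, the co-receptor of Sema3A, stood at 44.9, 51.3 and 50.4 CPM against 46.4, 44 and 40 CPM, with an adjusted p of 0.193. Whether the changes of Nrp2 and Nrp1 differed was not tested.

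Eph receptors are tyrosine kinases that bind ephrins, and of 14 members 5 fell, 1 rose and 8 did not pass the test. The shares over all tested genes were 12.4% lower and 12.2% higher. Ephb1, the most abundant Eph receptor, stood at 94.3, 117 and 119 CPM in Ctrl and at 77.2, 80.4 and 81.6 CPM in Sox2 cKO. No library of one group reached the other, and the change was -0.46 ± 0.10 with an adjusted p of 0.0139. Epha4, which binds ephrins of both classes and acts in corticospinal axons and astrocytes, stood at 49.6, 51.8 and 48.1 CPM against 32.7, 40 and 35.6 CPM, a change of -0.46 ± 0.09 with an adjusted p of 0.0132. Epha6 had the largest fall of all tested members in this fit, -0.84 ± 0.25 with an adjusted p of 0.0336, from 9.02, 15.5 and 13.6 CPM to 4.61, 8.25 and 8.27 CPM. The low level left wide spread in both groups. Ephb2 stood at 21.3, 26.7 and 26.5 CPM in Ctrl and at 18.7, 18.9 and 19.5 CPM in Sox2 cKO (adjusted p = 0.0288).

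Ephb6 and Epha10 encode Eph proteins without kinase activity and moved in opposite directions. Ephb6 stood at 69.2, 73.8 and 75.1 CPM in Ctrl and at 59.3, 58.5 and 61.5 CPM in Sox2 cKO, a change of -0.28 ± 0.07 with an adjusted p of 0.0233. Epha10 stood at 49.1, 49.2 and 52 CPM in Ctrl and at 62.7, 63.1 and 55 CPM in Sox2 cKO, a change of 0.27 ± 0.08 with an adjusted p of 0.0411. Neither gene overlapped between the groups. Epha8 was also higher in every Sox2 cKO library, at 0.37 ± 0.14, and missed the threshold with an adjusted p of 0.0815.

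Netrin receptors pointed one way. All 5 tested members of the UNC5 and DCC group were lower in every Sox2 cKO library than in any Ctrl library, and 4 of them passed the test. Over all tested genes 22.1% showed that order and 12.4% were called lower, and with the length correction Unc5b alone of these 5 was called. Unc5b, a repulsive receptor also known from endothelium, stood at 122, 137 and 138 CPM in Ctrl and at 93.2, 103 and 100 CPM in Sox2 cKO (-0.42 ± 0.08, adjusted p = 0.013). Unc5c stood at 33.4, 39.5 and 41.6 CPM against 21.2, 26.3 and 28.7 CPM, a change of -0.59 ± 0.13 with an adjusted p of 0.0146. No Sox2 cKO library of either gene reached the lowest Ctrl library. Unc5d, which also binds FLRT proteins, stood at 26.1, 29.9 and 35 CPM in Ctrl and at 21.9, 23.9 and 22.9 CPM in Sox2 cKO (adjusted p = 0.0295). Dcc, the attractive netrin receptor, stood at 6.37, 9.81 and 9.08 CPM in Ctrl and at 3.78, 6 and 5.67 CPM in Sox2 cKO, a change of -0.70 ± 0.21 with an adjusted p of 0.0389. The highest Sox2 cKO value of Dcc lay close under the lowest Ctrl value. Unc5a, at 36.6, 43.7 and 38.5 CPM against 33.5, 35.9 and 35.1 CPM, had an adjusted p of 0.157.

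Robo receptors bind Slits, and 1 of 4 fell, beside 12.4% of all tested genes. Robo1 stood at 74.3, 74.9 and 66.1 CPM in Ctrl and at 46, 59.4 and 57.9 CPM in Sox2 cKO, a change of -0.40 ± 0.11 with an adjusted p of 0.0249. With the length correction its change was -0.12 and the adjusted p 0.423, and limma on the FPKM scales gave 0.0833 and 0.084. Robo2 stood at 60.7, 70.8 and 66.6 CPM against 45.9, 58.9 and 58.3 CPM, and it missed the threshold with an adjusted p of 0.0807. In both genes Sox2 cKO library 1 was the lowest, and the groups did not overlap.

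Of the 41 tested members that were not called, 8 were lower in every Sox2 cKO library than in any Ctrl library, 5 were higher and 28 overlapped. Among all tested genes, called or not, 22.1% were lower in this way and 22.6% higher. The shares among uncalled genes alone were not computed. The 8 were Sema3c, Sema3d, Sema3e, Sema3f, Sema5b, Epha5, Robo2 and Unc5a, which includes 4 secreted class 3 semaphorins. Sema3e, the Plexin-D1 ligand, came nearest to the threshold among them, at 15.1, 16.8 and 14.1 CPM in Ctrl and 11.3, 13.1 and 12 CPM in Sox2 cKO (adjusted p = 0.0537). The 5 on the other side were Sema4a, Sema4g, Efna3, Efnb2 and Epha8. Sema4g, a membrane semaphorin, stood at 19.3, 21.9 and 21 CPM against 27.3, 24.4 and 24 CPM, with an adjusted p of 0.0562. A p that misses the threshold does not show that these members did not differ.

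**Figure D3:**
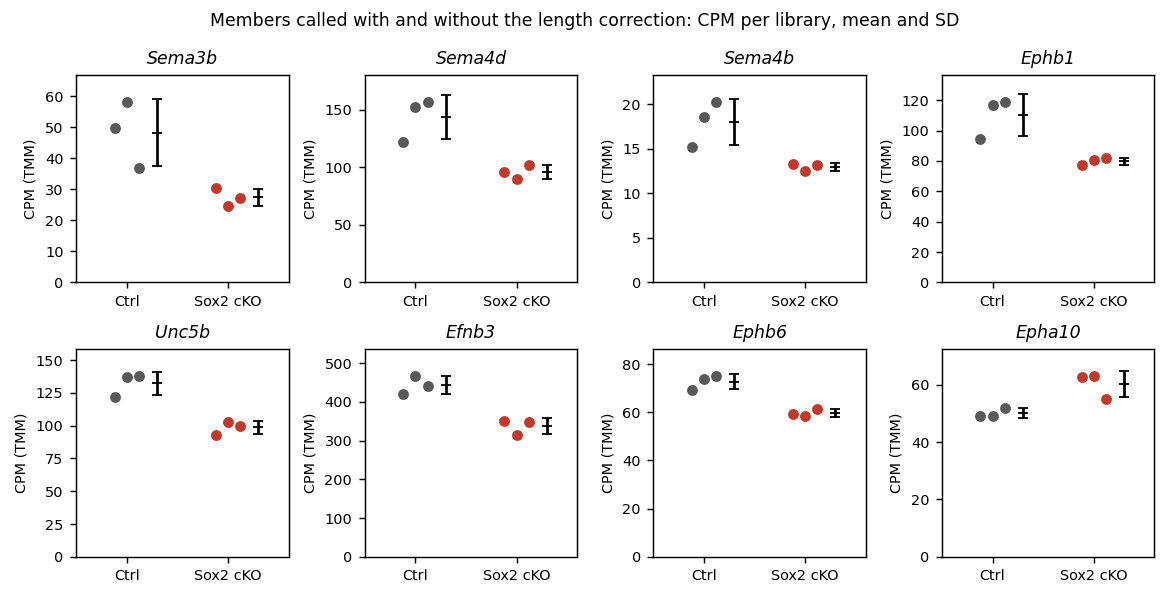
CPM (TMM scaling, axes from 0) of the 8 members called in the same direction with and without the length correction, as points for the 3 Ctrl and 3 Sox2 cKO libraries with the mean and SD beside them. The points of the groups do not overlap in any panel, and 7 genes are lower and Epha10 is higher in Sox2 cKO.

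Gene length, in bases as the authors used it for FPKM, was examined because fold changes followed it over the whole table. Long genes were lower in Sox2 cKO and short genes higher, with a Spearman rank correlation of -0.48 across the 16137 tested genes and -0.31 across the 66 members. These genes share their libraries and are not independent replicates. In the longest of 5 equal bins of length, from 4872 bases, 36% of all genes fell, and 16 of the 35 members there fell, or 45.7%. In the next bin, from 3545 to 4869 bases, 14.2% of all genes and 6 of 21 members fell. The bin from 2615 to 3544 bases held 7 members, of which 2 fell, Efnb3 and Sema3b, beside 7.03% of all genes. The longest bin took 27.4, 31.1 and 30.2% of the counts in Ctrl and 24.1, 26.1 and 25.8% in Sox2 cKO, so that the groups did not overlap in this library measure. RNA integrity is known only as a minimum, 6.8 in the labels and a higher one in the methods, with no value for a library, and its part in the result was not tested.

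After the length trend was removed from each library, that correlation was 0.01 over all genes and 0.16 over the members, and 10 members were called. Of these, 8 were also called without the correction. Sema3b had a corrected log2 change of -0.81 ± 0.15 (adjusted p = 0.0191), Sema4d -0.48 ± 0.09 (0.0193), Efnb3 -0.41 ± 0.07 (0.0187) and Ephb1 -0.35 ± 0.08 (0.0254). Sema4b, Ephb6 and Unc5b also remained lower, and Epha10 remained higher at 0.38 ± 0.08 (0.0209). The other 2 calls were gained, Sema4g at 0.39 ± 0.09 (0.029) and Plxnb3 at 0.24 ± 0.07 (0.0496), both higher in Sox2 cKO. Long members lost most of their fold change. Plxna4, of 12877 bases, went from -0.53 to -0.10, Ephb2 from -0.38 to 0.01 and Unc5d from -0.41 to -0.06. Plxnb1 went from -0.73 to -0.38 ± 0.12 with an adjusted p of 0.0632, Dcc from -0.70 to -0.55 ± 0.19 (0.0838) and Epha6 from -0.84 to -0.79 ± 0.24 (0.0541). By role the corrected medians were -0.09 for semaphorins, 0.10 for plexins, -0.22 for UNC5 and DCC receptors, 0.06 for Robo receptors and 0.08 for ephrins.

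**Figure D4:**
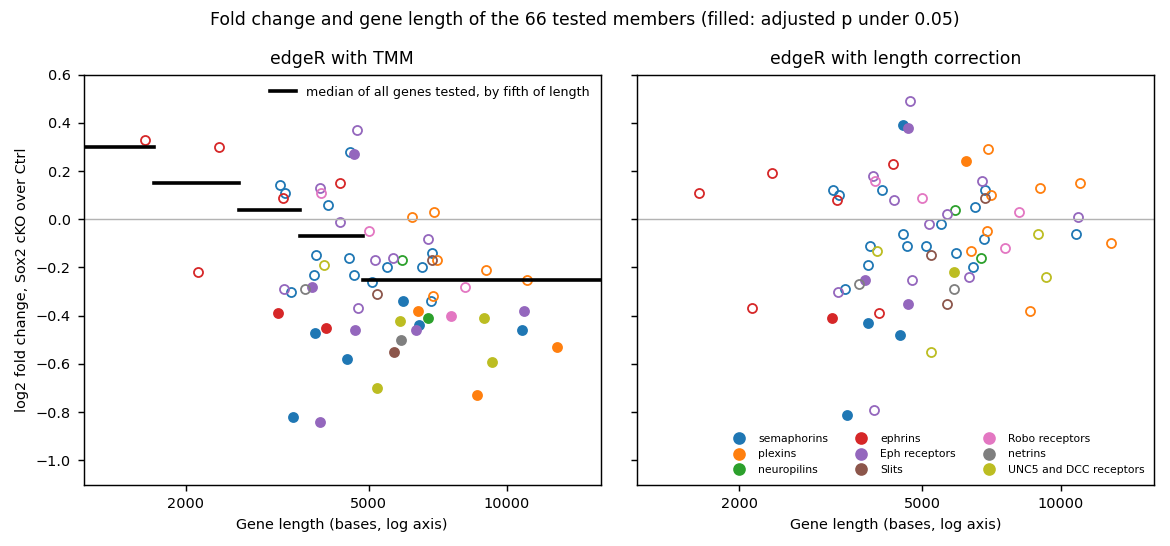
Log2 fold change of the 66 tested members against gene length in bases (log axis), from edgeR with TMM on the left and after the length correction on the right, coloured by role and filled at an adjusted p under 0.05. Black bars on the left are medians of all tested genes in 5 bins of length, which step from 0.30 in the shortest to -0.25 in the longest.

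Other proteins of the guidance pathways were read from lists of co-receptors and adhesion partners and of cytoplasmic effectors. Among 30 co-receptors and adhesion partners 14 fell and none rose, and the median was -0.30. Over all tested genes 12.4% were called lower and 12.2% higher. This list had a median length of 5765 bases, and of all genes from 4872 bases 36% fell. Met, the HGF receptor that associates with B plexins, went from a mean of 6.31 ± 1.44 CPM to 2.75 ± 0.479 CPM (SD, n = 3), a change of -1.19 ± 0.22 with an adjusted p of 0.0126. Nfasc and Cntn1, adhesion molecules of the node of Ranvier, changed by -0.65 ± 0.13 and -0.50 ± 0.11. Rgma, a ligand of the DCC relative neogenin, fell by 0.53 on the log2 scale, while neogenin itself (Neo1) did not pass the test at -0.22 ± 0.09 (adjusted p = 0.106). L1cam, the cell adhesion partner of neuropilin-1, stood at 88.5 ± 6.61 CPM in Ctrl and 88.1 ± 6.38 CPM in Sox2 cKO (adjusted p = 0.961).

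Among 55 cytoplasmic effectors 21 fell, 6 rose and 28 did not pass the test, with a median of -0.14. Srgap1, a GTPase activator that binds Robo, changed by -0.83 ± 0.14. Farp1 and Farp2, FERM-domain exchange factors of plexin-A signalling, both fell. Those that rose were Dpysl4, a collapsin response mediator, with 0.71 ± 0.12, the kinase Cdk5 with 0.63 ± 0.12, and the actin regulators Vasp, Evl, Cfl1 and Sh3bp1. Over both lists 35 of 85 genes fell and 6 rose, and with the length correction 11 fell and 3 rose, Dpysl4, Cdk5 and Sh3bp1. With that correction 6.99% of all tested genes were called lower and 6.08% higher. The medians of the lists became -0.13 and -0.06.

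Cell type markers moved with the group as well, and their part in the guidance result was not tested. Over all tested genes edgeR called 12.4% lower and 12.2% higher, and with the length correction 6.99% and 6.08%. Of 10 astrocyte markers 6 fell, and 4 with the length correction. Their summed level ranged from 6768 to 8884 CPM in Ctrl and from 4728 to 4976 CPM in Sox2 cKO. Of 8 listed markers of oligodendrocyte precursors 7 were found by symbol, and Lhfpl3 matched no row. Of these 7 markers 5 fell, and 4 with the length correction, with sums of 596 to 663 CPM against 465 to 524 CPM. Of 10 mature oligodendrocyte markers edgeR called 0, with 2 at an unadjusted p under 0.05, DESeq2 called 3, and the length-corrected fit called 2 as lower, with sums of 32263 to 36098 CPM and 32558 to 35083 CPM. Among 12 neuron markers Nefh fell and Stmn2 rose in edgeR, while 5 had an unadjusted p under 0.05 and DESeq2 called 5. The neuron sums ran from 11908 to 12631 CPM in Ctrl against 11432 to 11773 CPM. Neutrophil markers rose for 6 of 7 genes, with sums of 11.7 to 18.7 CPM against 22.8 to 71.4 CPM. Of 8 microglia, 8 endothelial and 7 mural cell markers edgeR called 1 higher in each list, and of 6 ependymal markers 1 fell. DESeq2 called 3 microglia, 1 endothelial and 1 mural cell marker, and 4, 3 and 3 had an unadjusted p under 0.05. Of 7 meningeal fibroblast and 6 Schwann cell markers 0 were called by edgeR or DESeq2, with 1 and 0 at an unadjusted p under 0.05. The summed fibroblast markers ranged from 217 to 611 CPM within Ctrl. No marker that was found by symbol was at 0 in all libraries.

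SOX2 binding was read from sites of highest enrichment in chromatin of adult mouse cerebral cortex, a tissue other than the cord. For 5 members, Robo1, Sema5b, Plxnc1, Plxnd1 and Epha3, such a site had the member as its nearest gene. The motif match of each site is printed because these are the members near which the deleted factor was bound in that tissue. Capitals mark the 11 bases matched to the SOX2 motif, read 5′ to 3′ as listed, and the mm10 coordinates are those of the listed window. The Sema5b, Plxnc1 and Epha3 matches are listed on the minus strand. Of these matches only that of Epha3 holds CAAAG, the core sequence that the study names for SOX2, which also counts variants of it.
Robo1 site, chr16:72699511-72699611: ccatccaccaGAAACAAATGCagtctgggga
Sema5b site, chr16:35581476-35581576: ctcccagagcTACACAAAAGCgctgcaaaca
Plxnc1 site, chr10:94829632-94829732: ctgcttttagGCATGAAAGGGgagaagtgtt
Plxnd1 site, chr6:116055052-116055152: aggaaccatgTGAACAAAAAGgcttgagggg
Epha3 site, chr16:64069270-64069370: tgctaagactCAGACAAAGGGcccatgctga
All 5 sites lay 40.4 kb or more from the gene start. The Robo1 site lay in an intron 391.3 kb after the start, the Sema5b site in an intron 40.4 kb after it, and the Plxnc1 site in an intron 115.2 kb after it. The Plxnd1 and Epha3 sites lay outside these genes, 60.1 kb and 205.1 kb before the start. Robo1 (chr16:72308306-73046095) was the gene of these 5 that fell, and it was not called with the length correction. Sema5b, a transmembrane semaphorin with thrombospondin repeats, stood at 10.5, 13.4 and 11.2 CPM in Ctrl and at 10.5, 9.65 and 9.9 CPM in Sox2 cKO (adjusted p = 0.213). Plxnc1, the Sema7A receptor, stood at 14.9, 17 and 15.5 CPM against 13.7, 15.6 and 13 CPM (adjusted p = 0.296). The groups of Plxnc1 overlapped. Plxnd1, the Sema3E receptor, stood at 9.69, 11.3 and 10.7 CPM against 10.2, 7.54 and 7.78 CPM (adjusted p = 0.137), and Epha3 at 3.5, 3.53 and 2.46 CPM against 2.64, 3.27 and 2.57 CPM (adjusted p = 0.598). The other members can have sites of lower enrichment, which were not analysed here.

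Promoters of RefSeq (GRCm38.p6, from 250 bases before to 50 after a gene start) were searched for ACAAAG and ACAATG on both strands, which appear as CTTTGT and CATTGT on the other strand. The table held promoters for 59 of the 69 members. At least 1 match lay in 17 of 75 promoters of members, or 22.7%, in 7 of 23 promoters of called members, and in 28.6% of all 32851 promoters. The promoters of Plxnb1 and of Sema4d, a receptor and its ligand that both fell, are printed with the matches in capitals. Plxnb1 held 2 matches at its start and the Sema4d promoter, one of several of that gene, held 1.
Plxnb1 promoter, chr9:109095186-109095485, plus strand: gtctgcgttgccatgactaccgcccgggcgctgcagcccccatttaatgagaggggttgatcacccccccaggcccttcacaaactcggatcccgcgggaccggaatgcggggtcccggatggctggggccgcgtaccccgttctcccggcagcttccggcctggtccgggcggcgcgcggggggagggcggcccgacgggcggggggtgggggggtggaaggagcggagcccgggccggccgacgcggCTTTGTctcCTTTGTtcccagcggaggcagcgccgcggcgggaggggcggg
Sema4d promoter, chr13:51748761-51749060, minus strand: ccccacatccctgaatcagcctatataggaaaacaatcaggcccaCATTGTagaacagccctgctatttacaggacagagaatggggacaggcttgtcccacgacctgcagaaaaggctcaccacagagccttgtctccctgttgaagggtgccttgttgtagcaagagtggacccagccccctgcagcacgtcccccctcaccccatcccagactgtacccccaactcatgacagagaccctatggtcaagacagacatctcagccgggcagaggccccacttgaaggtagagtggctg
A match describes the letters of the window and not a bound site.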

How the data were processed

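Poly(A) RNA of 6 spinal cords was sequenced. The authors deposited whole-number read counts per gene. They also deposited FPKM values, the counts divided by gene length and library total. Per the labels, reads were aligned to mm10 with STAR 2.5 and counted with HTSeq 0.6.1. The gene length used here was recovered from the 2 tables and was whole for all 24442 genes with a count. GENCODE M21 gave symbols, types and positions (mm10), and 34490 of 35275 identifiers matched. Columns were grouped by the mouse numbers of the study. Under that grouping the recomputed group means matched a published list for 1999 of 1999 genes (relative tolerance 0.001), and 0 matched with the groups exchanged. There were 0 unused columns of per-sample values.

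The main test was that of edgeR 4.0.16 in R 4.3.3 (filterByExpr, TMM, quasi-likelihood test, no covariates) and Benjamini-Hochberg adjustment over all 16137 genes tested, at 0.05. Library totals were 21507911 to 28392184, the common biological coefficient of variation was 0.119, and errors are SE of log2 fold changes or SD of n = 3. p-values set the difference between the groups against the spread of libraries within a group, for these 6 libraries. Alternatives were DESeq2 1.42.0, other scalings and filters, limma 3.58.1 with an abundance trend on log2(FPKM + 1) and log2(FPKM + 0.1) at a mean FPKM of at least 0.5, a length correction by a lowess curve (span 0.3), and fits without each library. The scripts were tested on simulated counts with 200 changed genes. The members, lists and tests were chosen with earlier results of these data known. Members named are called members without overlap, the 2 most abundant of each role by FPKM, those nearest to a listed SOX2 site, Dcc, the member nearest to the count limit, and Sox2. Any further gene was named with its values known.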

Additional observations from a re-analysis of the deposited data

How the results depend on the processing

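The counts of called genes changed with the length correction, with the FPKM scale and when single libraries were left out. Members called numbered 25 with edgeR and TMM, 13 with limma on either FPKM scale (10 lower and 3 higher) and 10 with the length correction. The whole table split into 915 genes down and 2670 up under limma with a pseudocount of 1, against 2008 and 1962 under edgeR. Partners and effectors called numbered 41, and 27 with limma on either FPKM scale and 14 with the length correction. Of the 24 called members without overlap, 11 were called with limma on either scale and 8 with the length correction. The other scalings and filters and DESeq2 kept these counts within 1.5 times. The members' median log2 fold change of -0.26 was -0.27 with RLE size factors, -0.21 with the upper quartile, -0.28 with DESeq2, -0.13 and -0.15 with limma at pseudocounts of 1 and 0.1, and -0.07 with the length correction. On the FPKM scales the median of all genes was 0.09 and 0.11.

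Over fits without 1 library by edgeR, by DESeq2 and with the length correction, called members ranged from 0 to 33, partners and effectors from 0 to 52, the 24 members from 0 to 24, and the median from -0.34 to -0.04. With edgeR, 0 of 25 called members were called in all 6 such fits and 7 in 4 of them, and the signs of all 24 stayed. The length-corrected fits without a library and the other medians were chosen after seeing the data.

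With the length correction the sign turned to positive for 13 of 66 tested members. Those among the named were Ephb2 (0.01), Nrp1 (0.04), Slit2 (0.09), Robo2 (0.03), Plxnc1 (0.10) and Epha3 (0.02). With DESeq2 the sign of Plxnb3 turned from positive (0.01) to negative (-0.00). None of these genes was called under the setting that turned its sign. Over the fits without 1 library the log2 fold change ranged from -0.50 to 0.05 for Ephb2, from -0.52 to 0.01 for Unc5d, from -0.05 to 0.30 for Plxnb3, from -0.24 to 0.11 for Nrp1, from -0.26 to 0.13 for Slit2, from -0.36 to 0.08 for Robo2, from -0.26 to 0.18 for Plxnc1, from -0.48 to 0.06 for Plxnd1 and from -0.33 to 0.14 for Epha3. The cause of the changes without a library was not tested.

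No paired analysis was possible because the deposited columns carry no replicate numbers that tie them to the labels. Libraries were compared in pairs and left out in turn, but no outlier test was run, since groups of 3 are too small.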
